A study of Mus musculus with 14 samples.

Results

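Dorsal skin of the mouse embryo was compared between embryonic days E12.5 and E10.5 in a pair of bulk RNA libraries. These are the samples titled E12.5 and E10.5, both of the sequencing project that is listed first in the labels, and they are 2 of the 14 libraries of the series. All embryos were wild-type C57BL/6 mice with no treatment recorded. The number of embryos behind each library and the boundaries of the dissection are not given in the sources used here. The first project also holds skin at E9.5 and E14.5, whose levels place the 2 ages in a longer course. A second project holds skin of the same strain, genotype and ages under titles that begin with ES, and its E10.5 and E12.5 libraries served as a check of the same step. The other libraries, among them 6 of the aorta-gonad-mesonephros region, were not used. RNA was selected by its polyA tail before library preparation. Each age is 1 library in a project, so the ages could not be tested against each other, and no replicate error exists for any value given.

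Between these days the back of the embryo passes from a simple surface ectoderm over loose mesenchyme to a tissue with a committed basal epidermis and a young dermis. The dorsal dermis comes mainly from the dermomyotome of the somites, which also gives rise to the muscle beneath the skin. Sensory axons, glia, vessels and macrophages enter from outside. The neural tube lies directly under the early dorsal skin, and the limb buds and the vertebral cartilage lie beside it.

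Levels are given in CPM, a gene's counts per 1000000 counts of its library, summed over all 53465 genes of the table. CPM is not corrected for gene length, so a level was compared with the same gene's level only. Each ratio has an exact 95% counting interval, which covers counting error and neither embryo nor dissection. A gene was called higher or lower when its mean level in both libraries was 1 CPM or more and its whole interval lay past 2-fold. The total was 22716613 counts at E10.5 and 24003912 at E12.5, so that 1 count was worth 0.044 and 0.042 CPM. Second-project totals were 14044081 and 6770338 counts.

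The labelled tissue was first checked against markers. Among basal keratinocyte genes, the keratin Krt5 stood at 3.52 CPM at E10.5 and 93.7 CPM at E12.5, and the epidermal master regulator Trp63 stood at 9.11 CPM at E10.5 and 33.4 CPM at E12.5. Dermal Col1a1 was at 118 CPM at E10.5 and 2363 CPM at E12.5. Markers of neighbouring tissues were present too. Neural-tube Sox1 was at 81.9 CPM at E10.5 and 2.9995 CPM at E12.5, limb Tbx5 at 0.044 CPM at E10.5 and 179 CPM at E12.5, and cartilage Col2a1 at 386 CPM at E10.5 and 1281 CPM at E12.5. Whether tissue beside the skin contributed to either library was not tested, and in bulk RNA fewer cells of a type and less RNA per cell cannot be told apart. The second-project libraries had Krt5 at 1.28 and 1.62 CPM, Krt14 at 0.142 and 0 CPM, and 0 and 1 globin counts in all. They had the secreted protease Mmp3 at 3013 and 5024 CPM, against 0.044 and 0 CPM in the first project. Keratinocyte and red cell markers were thus at or near 0 in those libraries, and this limits what they can check.

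Of 14622 genes at the level set, 1958 were higher at E12.5 (13.4%) and 648 were lower (4.43%). The median change over all of them was 0.04 in log2(CPM + 1), with quartiles of -0.34 and 0.56. Changes were often large, since 376 of the higher and 108 of the lower genes differed by 10-fold or more. Among the higher genes 20 had 0 counts at E10.5, and among the lower genes 2 had 0 counts at E12.5. In the second project 596 of 14730 genes were higher (4.05%) and 125 were lower (0.849%), or 4.89% together, against 17.8% together in the first.

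**Figure D1:**
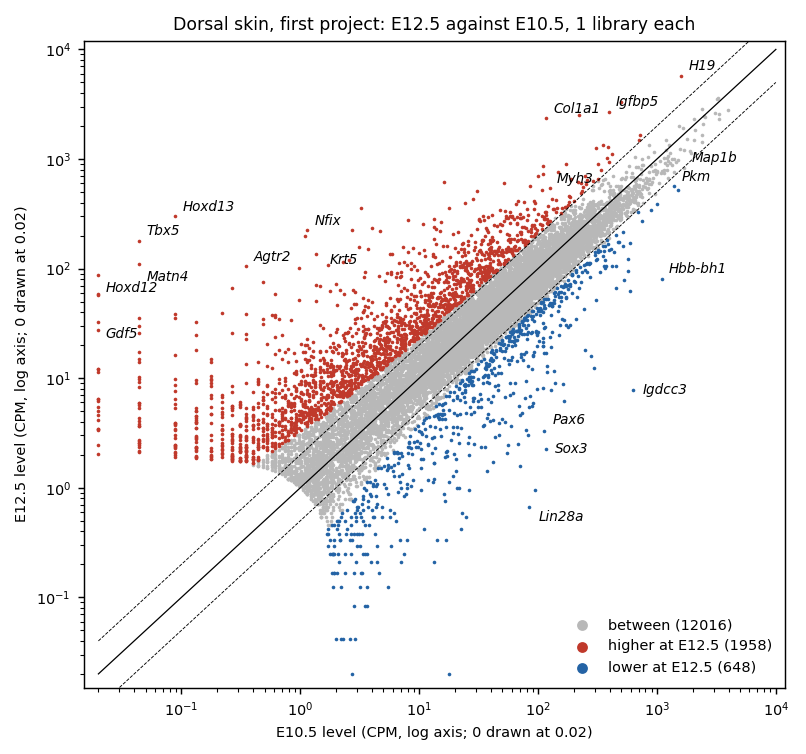
Level of each of 14622 genes in CPM at E10.5 (horizontal, log axis) and at E12.5 (vertical, log axis), 1 library each, first project. The solid line marks equal levels and the dashed lines 2-fold; red points are the 1958 genes called higher at E12.5 and blue points the 648 called lower.

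Matrix and growth genes made up most of the largest gains in CPM. H19, an imprinted noncoding RNA, gained most, from 1595 to 5779 CPM. Next came the fibrillar collagen genes Col3a1, Col1a2 and Col1a1 together with Igfbp5, an IGF-binding protein, which went from 392.3 to 2709 CPM. Gpc3, a surface proteoglycan, was at 355 CPM at E10.5 and 1329 CPM at E12.5, and Fstl1, a secreted glycoprotein, was at 309 CPM at E10.5 and 1268 CPM at E12.5. Losses were led by the chaperone Hsp90ab1, at 3971 CPM at E10.5 and 2824 CPM at E12.5, which stayed within 2-fold. Eif4g2, the embryonic globins Hbb-bh1 and Hba-x, Hnrnpu, the neuronal Map1b, the glycolytic Pkm and the nucleolar Ncl followed. Of these, Hbb-bh1, Hba-x and Pkm were called lower, and the others were not called.

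Gene lists differed in direction. Counts of list members called are to be read beside 13.4% higher and 4.43% lower of the 14622 genes at the level set, called all genes here. List counts are out of all members, those below that level included. Members and lists were chosen with earlier results of these data known, so an excess over these shares describes the lists and tests nothing. Distal Hox genes, tendon, collagen and proteoglycan lists had the highest medians, and neural progenitor and anterior Hox lists the lowest. The list medians of the second project lay near 0 for most of them. Medians take in members below the level set, and a gene near 0 CPM at both ages has a change near 0. In the second project 24 of 28 neural progenitor and 14 of 23 contractile and junction genes were below that level. Of the 16 collagen chains 3 were. For lists with most members below the level, a median near 0 there does not check the step.

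**Figure D2:**
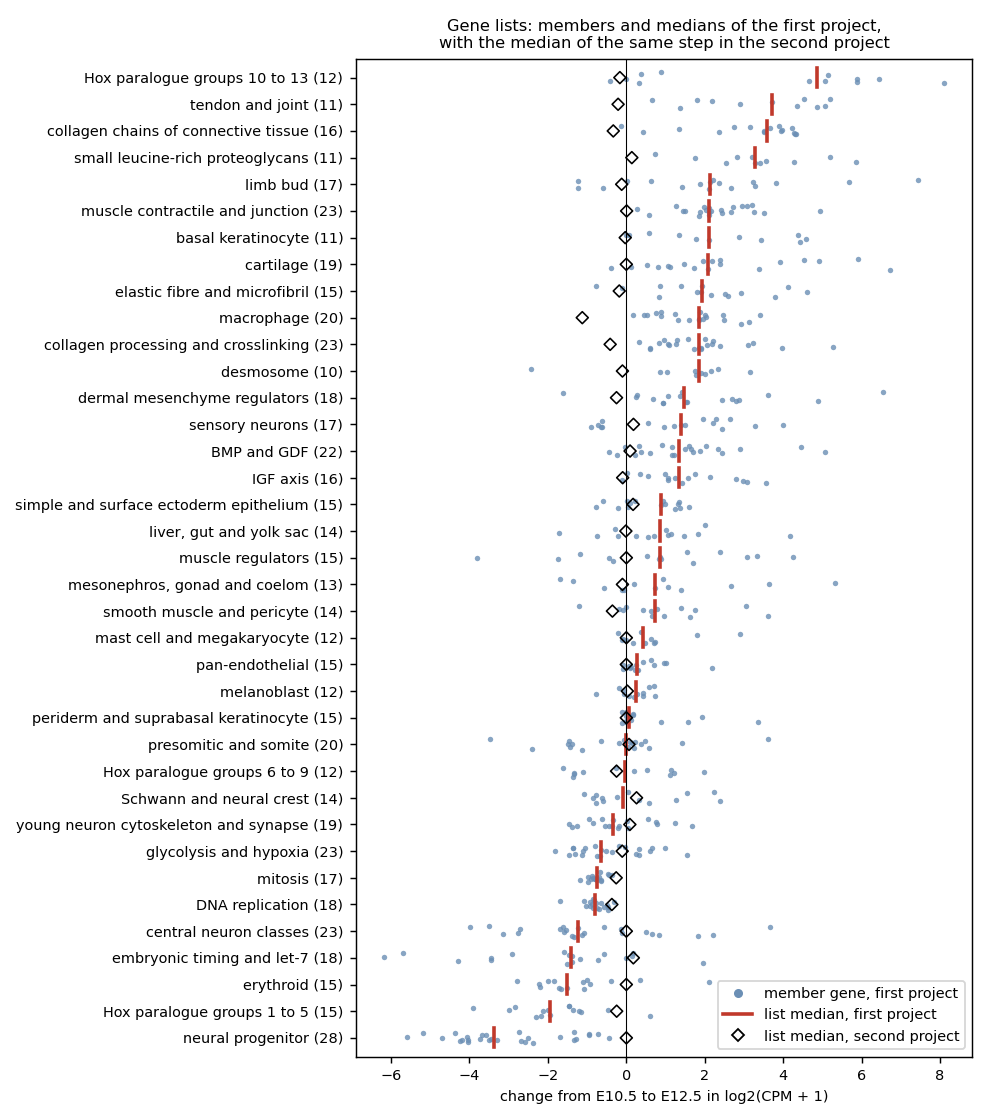
Change from E10.5 to E12.5 in log2(CPM + 1) for the members of 37 gene lists, with the number of members in parentheses. Points are genes of the first project, red bars are list medians of the first project, and open diamonds are list medians of the second project. Medians take in members below the level set. The first-project medians run from -3.37 for neural progenitors to 4.87 for Hox groups 10 to 13.

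Hox genes encode the transcription factors that give cells their position along the body, and their order within each cluster follows the order of their domains. Groups 1 to 5 are the anterior genes, and groups 10 to 13 of the A and D clusters pattern the distal limb and the tail end. Of the 12 genes of groups 10 to 13, 7 were higher and 0 lower. All 7 belong to the A or D cluster. Hoxd13, at chr2:74668310-74671599, had 2 counts at E10.5 and 7191 at E12.5, or 0.088 CPM at E10.5 and 299.6 CPM at E12.5. Its ratio was 3403-fold, with a counting interval of 942 to 28102. At E9.5 and E14.5 it stood at 0.652 and 0.224 CPM, so E12.5 stood alone among the 4 days.

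The other 6 called genes were likewise highest at E12.5 of the 4 days. Hoxa10 was at 2.29 CPM at E10.5 and 115 CPM at E12.5, a difference of 50.3-fold (38.3 to 67.6). Hoxd10 was at 0.088 CPM at E10.5 and 35.6 CPM at E12.5, and Hoxa11 was at 0.044 CPM at E10.5 and 25.6 CPM at E12.5, with 1 count at the earlier age. The antisense transcript Hoxa11os was at 0.132 CPM at E10.5 and 32.4 CPM at E12.5; whether counting used strand is not known here, so its reads and those of Hoxa11 may not be separable. Summed over groups 10 to 13, the D cluster went from 0.176 to 480.1 CPM and the A cluster from 2.33 to 199 CPM. The B and C clusters differed from this, with ratios of 0.946 and 1.16. Hoxb13 was near 0 on all days, and the C sum stood at 3.08 CPM at E10.5, 3.58 CPM at E12.5 and 13.8 CPM at E14.5. Evx2, the homeobox gene next to Hoxd13, was at 1.45 CPM at E10.5 and 30.3 CPM at E12.5, with 0.045 CPM at E14.5. In the second project Hoxd13 was at 23.8 and 16.1 CPM, and none of the 12 genes was called there.

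Anterior Hox genes moved the other way. Of the 15 genes of groups 1 to 5, 13 were lower and 0 higher, against 4.43% lower over all genes. Hoxb1, a hindbrain and early trunk gene, was at 22.98 CPM at E10.5 and 0.583 CPM at E12.5, or 39.4-fold (23.3 to 72.6) lower. Hoxd3 was at 37.4 CPM at E10.5 and 4.37 CPM at E12.5 and Hoxd4 at 39.4 CPM at E10.5 and 4.04 CPM at E12.5, each about as low at E14.5, with 2.24 and 2.33 CPM. The 2 exceptions were Hoxa5, at 101 CPM at E10.5 and 72.4 CPM at E12.5, and Hoxc5, at 60.7 CPM at E10.5 and 92.4 CPM at E12.5. Groups 6 to 9 were split, and only the B cluster moved as a whole. All 4 B genes were lower, Hoxb9 for example at 361 CPM at E10.5 and 144 CPM at E12.5, together with Hoxc9, while Hoxa9, Hoxc8 and Hoxd9 were higher. Hoxd9 was at 5.06 CPM at E10.5 and 23.1 CPM at E12.5.

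**Figure D3:**
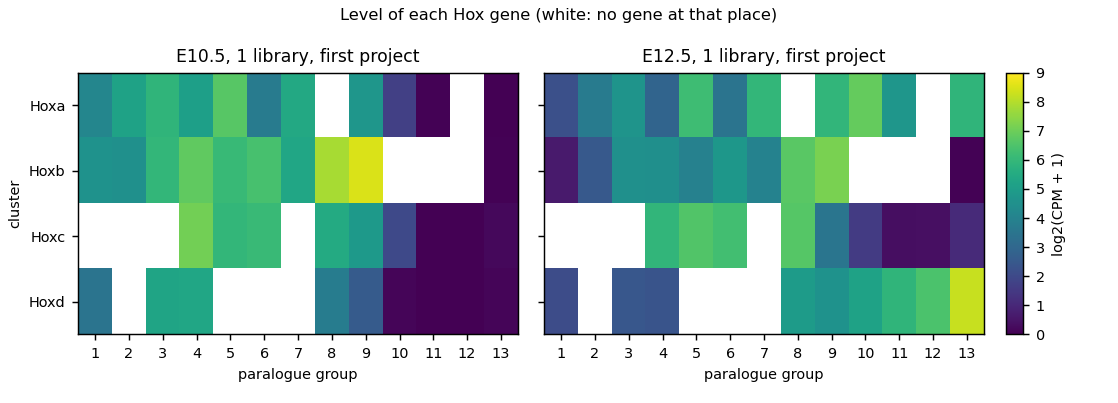
Level of the Hox genes in log2(CPM + 1), by cluster (rows) and paralogue group (columns), at E10.5 and at E12.5 in the first project, 1 library each; white marks a place with no gene. Groups 10 to 13 of the Hoxd row are dark at E10.5 and bright at E12.5, where Hoxd13 reaches 299.6 CPM.

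Limb bud genes were mostly higher, 12 of 17, with 2 lower. The summed level of the list was 722 CPM at E10.5 and 1453 CPM at E12.5, and had dropped to 461 CPM by E14.5. Tbx5, which starts the forelimb, had 1 count at E10.5 and 4303 at E12.5, with 19.7 CPM at E9.5 and 1.25 at E14.5. Its ratio was 4072 with a very wide interval of 730.5 to 160882. Tbx4, the hindlimb gene, was at 0.132 CPM at E10.5 and 9.71 CPM at E12.5. Hand2, a regulator of the posterior limb bud, was at 0.484 CPM at E10.5 and 75.5 CPM at E12.5, a difference of 156-fold (86.9 to 313). Lmx1b, which sets dorsal limb identity and is also made by spinal neurons, was at 23.7 CPM at E10.5 and 113 CPM at E12.5. Shox2, needed for the proximal limb skeleton, was at 13.1 CPM at E10.5 and 137 CPM at E12.5. Fgf8, the growth factor of the apical ridge, was at 1.36 CPM at E10.5 and 2.62 CPM at E12.5 and was not called. Sall1 and Sall3, zinc finger genes, were lower, Sall1 at 168 CPM at E10.5 and 71.1 CPM at E12.5. Limb markers and the Hox genes above were high in the same library; the part of limb tissue in these differences was not tested.

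Cartilage genes were higher in 14 of 19 cases and lower in 0. Their summed level was 891 CPM at E10.5 and 3386 CPM at E12.5, with 780.2 CPM on the day before and 368 CPM by E14.5. Matn4, a matrix adaptor, had 1 count at E10.5 and 109 CPM at E12.5. Acan, the aggrecan core protein, was at 0.616 CPM at E10.5 and 36.4 CPM at E12.5, a difference of 59.0-fold (35.0 to 108). Col9a3 was at 2.73 CPM at E10.5 and 225 CPM at E12.5 and Col2a1, the main cartilage collagen, at 386 CPM at E10.5 and 1281 CPM at E12.5, or 3.32-fold (3.24 to 3.399) higher. Sox9, which switches on the cartilage programme and also marks other progenitors, was at 167 CPM at E10.5 and 363 CPM at E12.5. Hapln1, a link protein, was at 106 CPM at E10.5 and 79.9 CPM at E12.5 and did not follow. Both terminal members, Ucma and 3110079O15Rik (the gene also called Snorc), had 0 counts at E10.5 and stayed below the level set.

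Among bone genes, the early regulators were higher and the late products were near 0. Runx2, the osteoblast regulator, was at 0.616 CPM at E10.5 and 58.3 CPM at E12.5, a difference of 94.6-fold (56.2 to 174). Sp7, which acts after it, was at 0.396 CPM at E10.5 and 5.21 CPM at E12.5. Bglap, Ibsp and Mepe, made by mature bone cells, were at or under 0.0880 CPM at both ages. Alpl, an alkaline phosphatase, was lower, at 16.3 CPM at E10.5 and 5.87 CPM at E12.5.

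Tendon and joint genes were higher in 10 of 11 cases. Scx, the tendon progenitor factor, was at 1.76 CPM at E10.5 and 62.3 CPM at E12.5, or 35.4-fold (25.9 to 49.7) higher. Tnmd, a marker of maturing tendon, had 0 counts at E10.5 and 12.2 CPM at E12.5, and reached 69.2 CPM at E14.5. Its E12.5 level was 92.1-fold higher against a floor of 3 counts per library, and its counting interval started at 74.4-fold. Mkx was at 10.3 CPM at E10.5 and 37.99 CPM at E12.5 and Six2 at 2.16 CPM at E10.5 and 63.2 CPM at E12.5. Gdf5, the signal of the joint interzone, had 0 counts at E10.5, 32.6 CPM at E12.5 and 0.045 CPM at E14.5. Scx in the second project stood at 1.07 and 1.48 CPM.

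**Figure D4:**
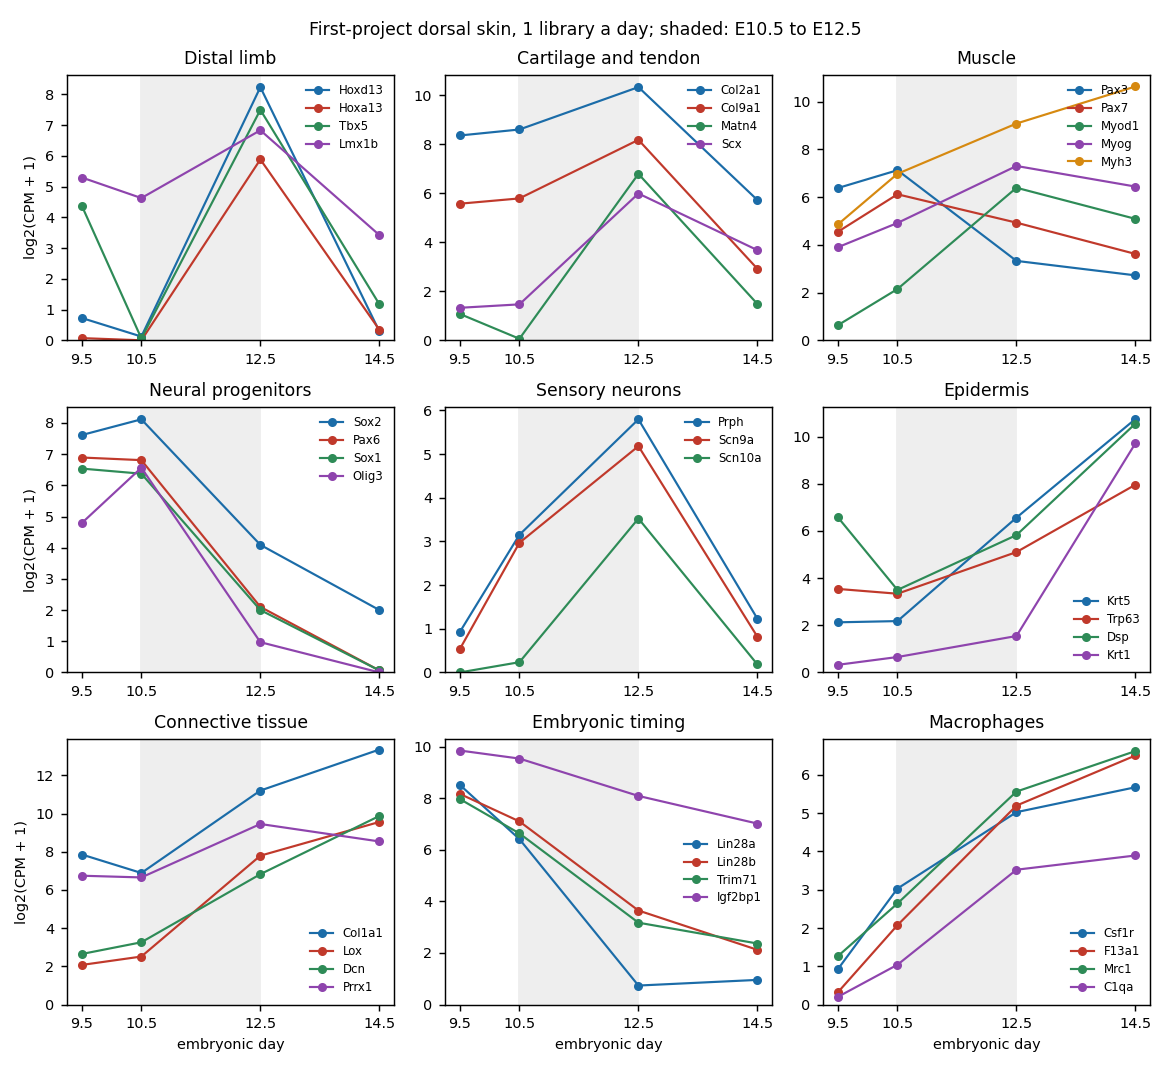
Level in log2(CPM + 1) against embryonic day for 36 genes in 9 groups, 1 first-project library a day; the shaded span is E10.5 to E12.5. Distal limb, cartilage, tendon and sensory neuron genes are highest at E12.5, while Krt5, Col1a1 and Myh3 go on upward to E14.5 and neural progenitor genes go down from E10.5.

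Muscle regulators moved in both directions. In the dermomyotome, Pax3 and Pax7 keep cells as progenitors, Myod1 and Myog commit and differentiate them, and Mymk fuses them into fibres. Pax3 was at 139 CPM at E10.5 and 9.04 CPM at E12.5, or 15.4-fold (13.4 to 17.7) lower, and Pax7 was at 68.5 CPM at E10.5 and 29.5 CPM at E12.5, or 2.32-fold (2.12 to 2.54) lower. Both also mark the dorsal neural tube, whose genes were lower in the same library. Myod1 was at 3.43 CPM at E10.5 and 83.1 CPM at E12.5, or 24.2-fold (19.3 to 30.8) higher, and Myog at 29.2 CPM at E10.5 and 157 CPM at E12.5, or 5.38-fold (4.95 to 5.85) higher. Mymk was at 2.91 CPM at E10.5 and 31.7 CPM at E12.5, or 10.9-fold (8.48 to 14.3) higher. The early determination gene Myf5 was at 11.97 CPM at E10.5 and 8.58 CPM at E12.5 and was not called. Myf6 was lower, at 4.14 CPM at E10.5 and 0.542 CPM at E12.5, and stood at 3.67 CPM at E14.5.

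Contractile and nerve-muscle junction genes were higher in 21 of 23 cases, and the other 2, Ckm and Tnnc2, were below the level set. Myh3, the embryonic myosin heavy chain, was at 125 CPM at E10.5 and 542 CPM at E12.5, or 4.33-fold (4.16 to 4.52) higher. Myh8, the perinatal myosin, was at 1.36 CPM at E10.5 and 71.5 CPM at E12.5, and Actc1, the actin of heart and early skeletal muscle, was at 84.9 CPM at E10.5 and 569 CPM at E12.5. Ttn was at 35.5 CPM at E10.5 and 199 CPM at E12.5. Of the acetylcholine receptor subunits, Chrna1 was at 1.98 CPM at E10.5 and 26.6 CPM at E12.5, Chrng at 4.18 CPM at E10.5 and 19.6 CPM at E12.5 and Chrnd at 1.36 CPM at E10.5 and 7.499 CPM at E12.5. Of 8 heart genes, 4 were below the level set, among them the atrial light chain Myl7. Of the other 4, the heart regulator Tbx20 was lower, at 4.27 CPM at E10.5 and 0.375 CPM at E12.5, and Myh6, Tnni3 and Hcn4 were not called, with ratios of 1.36, 1.56 and 1.35. The second project had 0 counts of Myod1 and Myog at both ages.

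Promoters of muscle genes are shown because most contractile and junction genes were higher and myogenic factors are known to bind E-boxes; a link between the 2 was not tested. The sequences come from RefSeq (GRCm38.p6) and cover the 250 bases before the start of the gene, 5′ to 3′ on the gene's strand. Chrna1 and Tnnt2 had the most matches of the muscle regulator and contractile lists, with 3 each. Chrng, with 2, tied with Tnni1, which is not shown, and was taken by alphabet. Capitals mark CAGCTG and CACCTG with its reverse complement CAGGTG, searched on both strands; CAGCTG is its own reverse complement and cannot overlap the others in full.
Chrna1, chr2:73580339-73580588, minus strand: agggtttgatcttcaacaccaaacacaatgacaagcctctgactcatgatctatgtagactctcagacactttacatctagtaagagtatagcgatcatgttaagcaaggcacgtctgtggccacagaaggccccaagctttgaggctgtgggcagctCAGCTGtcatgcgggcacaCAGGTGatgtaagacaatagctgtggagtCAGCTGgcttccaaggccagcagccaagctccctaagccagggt
Tnnt2, chr1:135836084-135836333, plus strand: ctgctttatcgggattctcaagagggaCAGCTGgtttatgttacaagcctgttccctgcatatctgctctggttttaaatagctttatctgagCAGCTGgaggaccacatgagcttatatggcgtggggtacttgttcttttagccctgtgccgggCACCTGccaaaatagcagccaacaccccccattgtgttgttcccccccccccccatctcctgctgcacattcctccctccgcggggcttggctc
Chrng, chr1:87205561-87205810, plus strand: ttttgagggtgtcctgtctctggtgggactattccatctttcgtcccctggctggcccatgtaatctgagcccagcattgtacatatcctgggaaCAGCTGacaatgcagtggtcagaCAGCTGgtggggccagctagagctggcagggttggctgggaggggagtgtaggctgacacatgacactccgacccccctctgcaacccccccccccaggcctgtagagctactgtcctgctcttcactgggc

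CAGCTG was present in 10 of the 26 genes of both muscle lists that have a promoter in the RefSeq table (38.5%), and in 14.7% of the 27025 genes with one. CACCTG or CAGGTG was present in 7 of the 26 (26.9%), against 19.4% of all. All of these genes with a match were among the 19 of the contractile and junction list, and 0 were among the 7 regulators. A match is a description of letters in this window. Tnnt2 was at 19.4 CPM at E10.5 and 54.6 CPM at E12.5, which is 2.82-fold (2.53 to 3.15) higher, and the 3 receptor and troponin genes shown were all higher.

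Connective tissue collagen chains were higher in 14 of 16 cases, with a median change of 3.59 in log2(CPM + 1). Summed over the list, the level was 1284 CPM at E10.5 and 11655 CPM at E12.5, and 37808 CPM at E14.5. Col1a1 was 20.1-fold (19.3 to 20.9) higher. The type VI chains, which form beaded filaments, moved alike, with Col6a1 at 13.4 CPM at E10.5 and 283 CPM at E12.5, Col6a2 at 17.9 CPM at E10.5 and 354 CPM at E12.5 and Col6a3 at 13.9 CPM at E10.5 and 229.5 CPM at E12.5. Col8a2 was at 7.31 CPM at E10.5 and 159 CPM at E12.5, and Col12a1, which decorates fibrils, was at 24.2 CPM at E10.5 and 393 CPM at E12.5. Col5a3 and Col13a1 were not called.

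Enzymes that build collagen followed, with 18 of 23 higher and 0 lower. Lox, which crosslinks collagen and elastin, was at 4.71 CPM at E10.5 and 221 CPM at E12.5, or 47.0-fold (38.8 to 57.4) higher. Adamts2, which trims the procollagen end, was at 2.02 CPM at E10.5 and 46.2 CPM at E12.5. Serpinh1, the collagen chaperone, was already high, at 704 CPM at E10.5 and 1479.8 CPM at E12.5, and differed by 2.10-fold (2.06 to 2.14). Plod2, Plod3, P4ha1, Ppib and Loxl4 stayed between the limits.

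Small leucine-rich proteoglycans coat collagen fibrils, and 10 of 11 were higher. Ogn was at 1.36 CPM at E10.5 and 136 CPM at E12.5, or 99.3-fold (69.8 to 146) higher. Dcn was at 8.58 CPM at E10.5 and 113 CPM at E12.5 and Lum at 21.2 CPM at E10.5 and 216 CPM at E12.5. Kera, a keratan sulphate proteoglycan, had 2 counts at E10.5 and stood at 38.9 CPM at E12.5. Omd, at 0.132 CPM at E10.5 and 0.875 CPM at E12.5, was below the level set.

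Elastic fibre genes were higher in 11 of 15 cases. Eln, elastin itself, was at 2.77 CPM at E10.5 and 64.3 CPM at E12.5, or 23.2-fold (18.01 to 30.3) higher. Fbln5, an assembly factor, was at 1.98 CPM at E10.5 and 71.7 CPM at E12.5, and Fbn2, the embryonic fibrillin, was at 229 CPM at E10.5 and 602 CPM at E12.5. Ltbp2 stayed near 0.792 CPM, and Emilin2 was at 76.9 CPM at E10.5 and 44.2 CPM at E12.5.

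Among matricellular proteins, 13 of 21 were higher. Tnc, tenascin C, was at 3.21 CPM at E10.5 and 357 CPM at E12.5, or 111-fold (88.3 to 142) higher, although it had stood at 43.6 CPM at E9.5. Postn, periostin, was at 28.4 CPM at E10.5 and 427 CPM at E12.5 and went on to 1964 CPM at E14.5. Proteases and inhibitors were higher in 12 of 19 cases; Mmp2 was at 70.3 CPM at E10.5 and 312 CPM at E12.5 and Timp2 at 60.0 CPM at E10.5 and 297 CPM at E12.5, while Mmp3 and Mmp13 had at most 1 count. Basement membrane genes were split, with 7 of 20 higher and 2 lower. Lama4, of vessel and muscle laminins, was at 33.8 CPM at E10.5 and 184 CPM at E12.5, while Lama1, of the early embryonic laminin, was at 125 CPM at E10.5 and 23.8 CPM at E12.5, or 5.26-fold (4.81 to 5.76) lower. In the second project 0 of the collagen chains were called, and Col1a1 was at 2647 and 1615 CPM.

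Regulators of dermal mesenchyme were higher in 12 of 18 cases. Tbx15, which patterns dorsal skin, was at 1.10 CPM at E10.5 and 196 CPM at E12.5, or 178-fold (121 to 276) higher. Twist2, an early dermal marker, was at 5.28 CPM at E10.5 and 33.3 CPM at E12.5, and Pdgfra, the receptor of young mesenchyme, at 110.2 CPM at E10.5 and 725 CPM at E12.5, or 6.58-fold (6.31 to 6.86) higher. Prrx1 was at 99.9 CPM at E10.5 and 701 CPM at E12.5 and Prrx2 at 7.84 CPM at E10.5 and 63.5 CPM at E12.5. En1, which marks the central dermomyotome that yields dorsal dermis, was at 21.5 CPM at E10.5 and 26.3 CPM at E12.5 and was not called. Msx1 was also not called, at 77.7 CPM at E10.5 and 91.9 CPM at E12.5. Crabp1, a retinoic acid binding protein, was lower, at 431 CPM at E10.5 and 140.4 CPM at E12.5, and stood at 404 CPM at E14.5. Several of these genes, such as Prrx1, Tbx18 and Msx1, are also made by limb mesenchyme, and the limb list was higher in the same library; its part was not tested. Nfix, a nuclear factor of the fetal programme, was at 1.14 CPM at E10.5 and 224 CPM at E12.5, or 196-fold (134 to 300.2) higher. Agtr2, the angiotensin receptor of fetal mesenchyme, was at 0.352 CPM at E10.5 and 105 CPM at E12.5 and 426 CPM at E14.5.

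Basal epidermis genes were higher in 8 of 11 cases and lower in 0. Krt5 was 26.6-fold (21.3 to 33.7) higher, and its partner Krt14 was at 0.484 CPM at E10.5 and 34.3 CPM at E12.5, or 70.9-fold (39.4 to 143) higher. Krt15 was at 0.484 CPM at E10.5 and 30.9 CPM at E12.5. Among adhesion genes of the basal layer, Col17a1 was at 0.616 CPM at E10.5 and 16.5 CPM at E12.5, and Itgb4 at 1.80 CPM at E10.5 and 11.1 CPM at E12.5. Trp63 was 3.67-fold (3.14 to 4.29) higher, a smaller step than that of the keratins. Itga6 was at 108 CPM at E10.5 and 108 CPM at E12.5, and Dst and Lamb3 were not called either. All 8 went higher still by E14.5, when Krt5 stood at 1722 CPM.

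Transcription factors of the epidermis were higher in 7 of 15 cases, Trp63 among them. Klf4, a barrier regulator, was at 3.35 CPM at E10.5 and 40.4 CPM at E12.5, or 12.1-fold (9.56 to 15.5) higher, and Grhl3 was at 1.89 CPM at E10.5 and 8.62 CPM at E12.5. Tfap2a and Tfap2b, made early in ectoderm and neural crest, were not called, Tfap2b at 104 CPM at E10.5 and 87.5 CPM at E12.5.

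Simple-epithelium genes behaved otherwise. Of 15, 5 were higher, led by the splicing regulators Esrp2 and Esrp1, with Epcam at 7.13 CPM at E10.5 and 19.5 CPM at E12.5 and Cdh1 at 10.8 CPM at E10.5 and 26.6 CPM at E12.5. The keratins of simple epithelia were not called. Krt8 was at 5.15 CPM at E10.5 and 2.58 CPM at E12.5, and Krt18 was at 9.02 CPM at E10.5 and 9.29 CPM at E12.5, both below their E9.5 levels of 29.7 and 49.3 CPM. Desmosome genes were higher in 7 of 10 cases. Dsp, the plaque protein, was at 10.3 CPM at E10.5 and 55.7 CPM at E12.5, or 5.41-fold (4.70 to 6.24) higher, and Pkp1, of stratified epithelia, went from 1 count to 8.29 CPM. Pkp2, a plakophilin of simple epithelia and heart, was lower, at 13.3 CPM at E10.5 and 1.67 CPM at E12.5.

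Suprabasal and periderm genes were at low levels, and 9 of 15 were below the level set. The other 6 held 3 higher genes, and the 3 of 15 compare with 13.4% higher over all genes. Krt17, a periderm and placode keratin, went from 1 count to 9.79 CPM, Sfn was at 2.86 CPM at E10.5 and 10.6 CPM at E12.5, and Lor, loricrin, was at 0.836 CPM at E10.5 and 5.96 CPM at E12.5. Krt1 was at 0.572 CPM at E10.5 and 1.92 CPM at E12.5, and Krt10 was at 5.33 CPM at E10.5 and 5.67 CPM at E12.5. At E14.5 the same 2 genes stood at 843 and 1161 CPM.

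Hair placode genes were mixed, with 5 of 15 higher and 1 lower. Edar, the ectodysplasin receptor, was at 0.352 CPM at E10.5 and 2.37 CPM at E12.5, and Sostdc1 was at 4.80 CPM at E10.5 and 19.3 CPM at E12.5. The placode signals Dkk4, Foxi3 and Fgf20 had at most 1 count at either age, while Dkk4 stood at 12.3 CPM at E14.5. Shh, which hair germs make later and the notochord and floor plate make at this stage, was at 16.9 CPM at E10.5 and 0.333 CPM at E12.5, or 50.9-fold (25.5 to 119) lower. Lhx2 and Bmp2 were higher, Lhx2 at 8.36 CPM at E10.5 and 43.7 CPM at E12.5 and then 1.43 CPM at E14.5; both are also limb genes.

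Neural progenitor genes formed the main lower group. Of 28, 24 were lower and 0 higher, and the summed level was 1421 CPM at E10.5 and 149.98 CPM at E12.5. The Sox genes that keep neural stem cells were all lower, Sox2 at 277 CPM at E10.5 and 16.04 CPM at E12.5, or 17.2-fold (15.6 to 19.2) lower, Sox1 at 81.9 CPM at E10.5 and 2.9995 CPM at E12.5, or 27.3-fold (21.6 to 35.0) lower, and Sox3 at 117 CPM at E10.5 and 2.25 CPM at E12.5, or 52.0-fold (39.7 to 69.4) lower. Pax6, of the intermediate tube, was at 111 CPM at E10.5 and 3.29 CPM at E12.5, or 33.7-fold (27.0 to 42.8) lower. Olig2, of motor neuron progenitors, was at 20.7 CPM at E10.5 and 0.9998 CPM at E12.5, and Olig3, of dorsal ones, at 93.6 CPM at E10.5 and 0.958 CPM at E12.5. Wnt1, of the roof plate, was at 24.7 CPM at E10.5 and 0.542 CPM at E12.5, and Foxa2, of the floor plate, at 7.395 CPM at E10.5 and 0.24996 CPM at E12.5. The lower genes thus came from the roof plate to the floor plate. Dbx2, Irx5, Lmx1a and Olig1 were not called. Atoh1, of the most dorsal progenitors, had 404 counts at E10.5 and 0 at E12.5, and was 142-fold lower against a floor of 3 counts per library. The neural POU factor Pou3f2 was at 297 CPM at E10.5 and 12.498 CPM at E12.5, or 23.8-fold (21.2 to 26.8) lower.

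Classes of central neurons were lower in 13 of 23 cases and higher in 3. Lhx3, of motor neurons and some interneurons, was at 14.1 CPM at E10.5 and 0.333 CPM at E12.5, or 42.3-fold (21.2 to 98.7) lower, and Mnx1, of motor neurons, was at 12.9 CPM at E10.5 and 1.12 CPM at E12.5. Tlx3, shared by dorsal spinal and sensory neurons, was at 14.6 CPM at E10.5 and 13.2 CPM at E12.5 and was not called. Evx2 and Lmx1b, named above with limb genes, and Gad2 were the 3 higher ones.

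Peripheral sensory neuron genes went the other way from the central ones. Of 17, 10 were higher and 0 lower. Prph, the intermediate filament of peripheral neurons, was at 7.88 CPM at E10.5 and 54.5 CPM at E12.5, or 6.92-fold (5.91 to 8.13) higher, and Scn9a, a sodium channel of pain-sensing neurons, at 6.82 CPM at E10.5 and 35.2 CPM at E12.5, or 5.17-fold (4.35 to 6.17) higher. Scn10a, a related channel, was at 0.176 CPM at E10.5 and 10.498 CPM at E12.5, or 59.6-fold (22.9998 to 221) higher. Pirt, a membrane protein of sensory neurons, was at 0.132 CPM at E10.5 and 24.7 CPM at E12.5, from 3 counts. Prph was low again at E14.5, at 1.34 CPM. The earlier determinants Pou4f1 and Isl1 were not called, Pou4f1 at 70.0 CPM at E10.5 and 36.99 CPM at E12.5 and Isl1 at 60.7 CPM at E10.5 and 36.2 CPM at E12.5.

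General genes of young neurons were mostly within the limits, 14 of 19. Mapt, the axonal tau, was higher, at 47.2 CPM at E10.5 and 114 CPM at E12.5, and Slc17a6, a glutamate transporter, was at 5.37 CPM at E10.5 and 19.4 CPM at E12.5. Tubb3, Elavl3 and Elavl4 were lower, Tubb3 at 520.4 CPM at E10.5 and 218 CPM at E12.5, or 2.39-fold (2.31 to 2.47) lower. Axon guidance genes were higher in 8 of 28 and lower in 4, against 13.4% higher and 4.43% lower over all genes. Robo2 was at 33.7 CPM at E10.5 and 179 CPM at E12.5, while Robo3, of commissural axons, was at 78.4 CPM at E10.5 and 17.2 CPM at E12.5, or 4.57-fold (4.10 to 5.10) lower. Glial genes were higher in 4 of 14 cases, against 13.4% over all genes. Erbb3, the neuregulin receptor, was at 38.8 CPM at E10.5 and 95.5 CPM at E12.5. Sox10 was at 52.4 CPM at E10.5 and 30.1 CPM at E12.5 and Foxd3 at 15.01 CPM at E10.5 and 8.29 CPM at E12.5, neither called.

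Pigment cell genes did not pass the limits in either direction, 0 of 12. Dct, the marker of migrating melanoblasts, was at 0.792 CPM at E10.5 and 1.92 CPM at E12.5 and went to 14.8 CPM at E14.5. Kit was at 30.6 CPM at E10.5 and 35.2 CPM at E12.5, and 7 of the 12 genes were below the level set.

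Red cell genes showed a change of composition and of amount. The embryo first makes red cells in the yolk sac with embryonic globins, and the fetal liver then supplies cells with adult ones. All globin genes together made up 0.478% of counts at E10.5 and 0.233% at E12.5. Hbb-bh1, an embryonic beta-like globin, was at 1092 CPM at E10.5 and 80.7 CPM at E12.5, or 13.5-fold (12.9 to 14.2) lower, and its share of beta-like counts went from 34.7% to 4.87%. Hbb-y, the other embryonic gene, went from 64.5% to 89.2% of those counts. Its level did not rise, at 2033 CPM at E10.5 and 1479 CPM at E12.5, and it was not called. The adult genes Hbb-bs and Hbb-bt were higher, Hbb-bs from 11.7 to 39.1 CPM and Hbb-bt from 13.03 to 59.2 CPM. Among alpha-like genes, the embryonic Hba-x went from 92.0% to 77.5%. Reads of Hba-a1 and Hba-a2, and of Hbb-bs and Hbb-bt, come from near-identical copies, and their split is uncertain. Each share rests on 16023 counts or more.

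**Figure D5:**
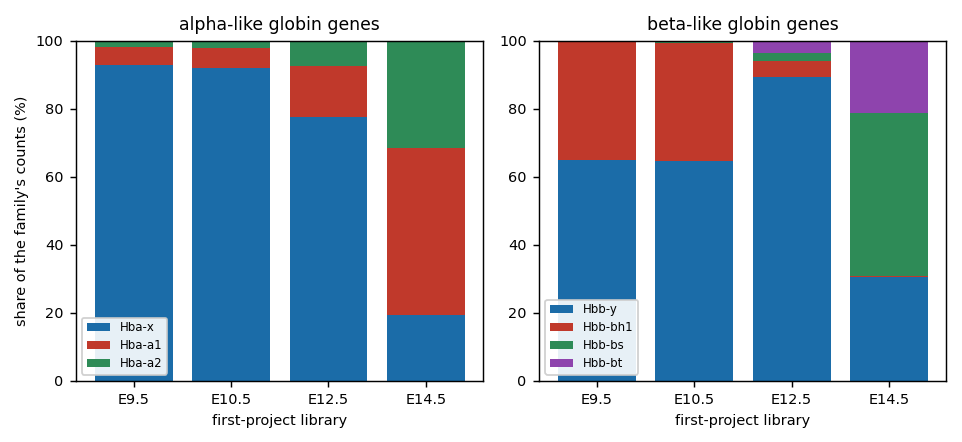
Share of the counts of the alpha-like (left) and beta-like (right) globin genes held by each gene, in percent, in the first-project libraries, 1 for each day. Between E10.5 and E12.5 the share of Hbb-bh1 goes from 34.7% to 4.87%, and that of Hba-x from 92.0% to 77.5%.

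Erythroid genes were lower in 9 of 15 cases. Gata1, the erythroid master factor, was at 7.44 CPM at E10.5 and 0.833 CPM at E12.5, Klf1 at 10.3 CPM at E10.5 and 1.83 CPM at E12.5 and the transferrin receptor Tfrc at 274 CPM at E10.5 and 83.4 CPM at E12.5. Alas2, of heme synthesis, was at 45.9 CPM at E10.5 and 23.7 CPM at E12.5 and was not called. Bcl11a, known as a silencer of embryonic and fetal globin genes and also made in neurons, was higher, at 40.8 CPM at E10.5 and 179 CPM at E12.5, or 4.40-fold (4.10 to 4.73).

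Macrophage genes were higher in 14 of 20 cases and lower in 0, with a summed level of 107 CPM at E10.5 and 376 CPM at E12.5. Csf1r, the growth factor receptor of macrophages, was at 7.18 CPM at E10.5 and 31.6 CPM at E12.5, or 4.41-fold (3.72 to 5.25) higher. F13a1 was at 3.21 CPM at E10.5 and 35.7 CPM at E12.5 and the mannose receptor Mrc1 at 5.24 CPM at E10.5 and 46.4 CPM at E12.5, or 8.85-fold (7.32 to 10.8) higher. Cx3cr1, of early tissue macrophages, was at 4.93 CPM at E10.5 and 22.2 CPM at E12.5. Lyve1, made by macrophage subsets and lymphatic vessels, was at 0.440 CPM at E10.5 and 14.2 CPM at E12.5. In the second project 9 of the 20 were lower and 0 higher, Csf1r at 30.5 and 12.9 CPM. The direction of this list thus differed between projects, and that difference was not tested.

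Mast cell genes were just detectable. Cpa3, a mast cell protease, had 0 counts at E10.5, 6.42 CPM at E12.5 and 184 CPM at E14.5. Its E12.5 level was 48.6-fold higher against the floor of 3 counts, and its counting interval started at 39.0-fold. Hdc, the histamine enzyme, had 0 counts and then 2.46 CPM. Megakaryocyte genes stayed within the limits, Pf4 for example at 3.35 CPM at E10.5 and 6.17 CPM at E12.5.

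Vessel genes differed by list. Of 15 pan-endothelial genes 1 was higher. Cdh5 was at 86.7 CPM at E10.5 and 177 CPM at E12.5, Pecam1 at 43.1 CPM at E10.5 and 84.3 CPM at E12.5 and Kdr at 90.6 CPM at E10.5 and 110.0 CPM at E12.5. The higher one, Erg, at 12.46 CPM at E10.5 and 60.0 CPM at E12.5, is made in cartilage and joints too. Of 13 arterial, venous and lymphatic genes 3 were higher and 1 lower (0 lower with median-of-ratios scaling), with Gja5, of arteries, at 9.51 CPM at E10.5 and 43.8 CPM at E12.5. Mural cell genes were higher in 5 of 14 cases and lower in 1, against 13.4% higher over all genes, with Cspg4 at 2.69 CPM at E10.5 and 43.8 CPM at E12.5 and Acta2 at 32.3 CPM at E10.5 and 273 CPM at E12.5.

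Somite genes were lower in 7 of 20 cases and higher in 2. Tcf15, of the epithelial somite, was at 27.9 CPM at E10.5 and 9.498 CPM at E12.5, Meox1 was at 122 CPM at E10.5 and 46.3 CPM at E12.5 and Dll3 at 85.9 CPM at E10.5 and 6.87 CPM at E12.5, or 12.501-fold (10.7 to 14.7) lower. Presomitic genes such as Msgn1, Tbx6 and T were near 0 at both ages. Mesonephric and coelomic genes were higher in 6 of 13 cases and lower in 2. Among the higher ones, Osr1 was at 1.72 CPM at E10.5 and 107 CPM at E12.5. Emx2 was at 2.95 CPM at E10.5 and 47.8 CPM at E12.5. Osr1 is also made in limb and dermal connective tissue. The lower ones were Lhx1, at 51.6 CPM at E10.5 and 15.3 CPM at E12.5, and Foxf1, at 2.11 CPM at E10.5 and 0.208 CPM at E12.5. Pax2 and Pax8 were not called. Liver and yolk sac genes were higher in 4 of 14 and lower in 1, against 13.4% higher and 4.43% lower over all genes. Afp led the higher ones, at 2.33 CPM at E10.5 and 58.9 CPM at E12.5, and had stood at 73.4 CPM at E9.5. Alb was at 0 CPM at E10.5 and 1.75 CPM at E12.5. These last lists rest on low levels, and 7 of the 14 liver and yolk sac genes were below the level set.

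Timing genes of the Lin28 and let-7 pathway keep early embryonic cells immature, since Lin28 proteins block the maturation of let-7 microRNAs. Of the 18 genes, 12 were lower and 1 higher. Lin28a was at 84.6 CPM at E10.5 and 0.667 CPM at E12.5, or 127-fold (78.0 to 223) lower, and Lin28b was at 137 CPM at E10.5 and 11.54 CPM at E12.5, or 11.9-fold (10.48 to 13.5) lower. Trim71, a let-7 target, was at 98.7 CPM at E10.5 and 8.04 CPM at E12.5, Sall4 was at 67.8 CPM at E10.5 and 2.4996 CPM at E12.5 and Nr6a1 was at 62.0 CPM at E10.5 and 7.37 CPM at E12.5. Lin28a had already gone from 366 CPM at E9.5. Hmga2, another let-7 target, was at 426 CPM at E10.5 and 470.3 CPM at E12.5 and went down only later, to 71.6 CPM at E14.5. The immunoglobulin superfamily genes Igdcc3 and Prtg were lower, Igdcc3 at 633 CPM at E10.5 and 7.75 CPM at E12.5 and Prtg at 164 CPM at E10.5 and 6.25 CPM at E12.5, while their relative Igdcc4 was higher, at 39.8 CPM at E10.5 and 157 CPM at E12.5.

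Another transcript of early embryonic cells, Mir17hg, was lower as well. It is the host of the miR-17-92 cluster, at chr14:115042879-115046727, and was looked at after its values were seen. It stood at 86.8 CPM at E9.5, 42.9 CPM at E10.5 and 12.3 CPM at E12.5, and 4.07 CPM at E14.5. The difference was 3.48-fold (3.05 to 3.97) lower. The mature microRNAs of the cluster are shown because the host carries them in 4 seed families; they were not measured by these libraries. Sequences are from RefSeq (GRCm38.p6), and capitals mark the seed, bases 2 to 8.
miR-17-5p: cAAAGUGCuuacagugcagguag
miR-20a-5p: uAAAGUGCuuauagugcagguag
miR-18a-5p: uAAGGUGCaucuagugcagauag
miR-19a-3p: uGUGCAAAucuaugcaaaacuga
miR-19b-3p: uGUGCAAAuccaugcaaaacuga
miR-92a-3p: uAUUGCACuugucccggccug

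miR-17-5p and miR-20a-5p share one seed and miR-19a-3p and miR-19b-3p another, while miR-18a-5p and miR-92a-3p each have their own. Among the hosts of miR-124, a microRNA of neurons, Mir124-2hg was at 115 CPM at E10.5 and 16.96 CPM at E12.5, or 6.81-fold (6.13 to 7.58) lower, and Mir124a-1hg was at 26.9 CPM at E10.5 and 10.2 CPM at E12.5. They were likewise chosen after their values were seen.

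Imprinted growth genes were higher in 9 of 21 cases and lower in 0. Igf2, the fetal growth factor, was at 109 CPM at E10.5 and 867 CPM at E12.5, or 7.92-fold (7.599 to 8.26) higher, H19, its neighbour, was 3.62-fold (3.58 to 3.66) higher, and Cdkn1c, a Cdk inhibitor, was at 321 CPM at E10.5 and 896 CPM at E12.5. Mest, Grb10 and Peg10 stayed within the limits, Peg10 at 899 CPM at E10.5 and 871 CPM at E12.5. IGF pathway genes were higher in 10 of 16 cases. Igf1 was at 66.5 CPM at E10.5 and 295 CPM at E12.5, Igfbp3 at 31.96 CPM at E10.5 and 276 CPM at E12.5 and Igfbp5 6.90-fold (6.75 to 7.06) higher, while the receptor Igf1r was at 259 CPM at E10.5 and 328 CPM at E12.5.

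Proliferation genes were lower by less than the limit in most cases. Of 18 replication genes 2 were called lower (1 with median-of-ratios scaling), and the median change was -0.80 in log2(CPM + 1), against 0.04 over all genes. Mcm2 was at 455 CPM at E10.5 and 239 CPM at E12.5 and Pcna at 186 CPM at E10.5 and 90.9 CPM at E12.5; Rrm2, of nucleotide supply, was called, at 520.2 CPM at E10.5 and 160.4 CPM at E12.5. The mitosis list had a median of -0.75, with 1 of 17 called lower and Mki67 at 855 CPM at E10.5 and 494 CPM at E12.5. Glycolysis and hypoxia genes were lower in 5 of 23 cases, all 5 of glycolysis and glucose uptake, and 1 was higher, the hypoxia-induced Ndrg1, at 5.02 CPM at E10.5 and 16.5 CPM at E12.5. Pkm was 2.47-fold (2.42 to 2.52) lower, with Ldha at 895 CPM at E10.5 and 346 CPM at E12.5 and the glucose transporter Slc2a1 at 363 CPM at E10.5 and 102 CPM at E12.5. Slc2a1 was at 751 CPM at E14.5. Pklr, the pyruvate kinase of red cells and liver, was at 22.5 CPM at E10.5 and 0.417 CPM at E12.5. Ribosomal protein genes (0 of 83) and nuclear respiratory chain genes (0 of 73) were not called in either direction. The ribosomal median was -0.35 in log2(CPM + 1), beside a lower quartile of -0.34 over all genes, and 74 of the 75 members at the level set had a ratio below 1. Some ribosomal genes had few counts in the first project only. Rps27 was at 2.51 CPM at E10.5 and 2.04 CPM at E12.5, and at 772 and 1811 CPM in the second, and Rpl23a was at 0.484 CPM at E10.5 and 0.292 CPM at E12.5, and at 149 and 209 CPM in the second, so their first-project levels are not read as low expression. Mitochondrially encoded genes also had 0 of 13 called; mt-Co2, mt-Atp6, mt-Atp8 and mt-Nd4l had 0 counts at both ages, while mt-Co1 stood at 2495 CPM at E10.5 and 2479 CPM at E12.5, so a listed 0 for these genes is not read as absence.

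Signalling pathways were described by their ligands, receptors, inhibitors and targets. BMP and GDF genes were higher in 14 of 22 cases, ligands and antagonists alike. Bmp2 was at 1.36 CPM at E10.5 and 50.7 CPM at E12.5, Bmp7 at 29.7 CPM at E10.5 and 98.9 CPM at E12.5, and the antagonist Nog at 5.15 CPM at E10.5 and 32.1 CPM at E12.5, or 6.24-fold (5.13 to 7.64) higher. The response genes Id1 and Id3 were not called, Id1 at 55.8 CPM at E10.5 and 84.6 CPM at E12.5. FGF genes were higher in 10 of 19 and lower in 2. Fgf10, of mesenchyme, was at 3.30 CPM at E10.5 and 21.2 CPM at E12.5, Spry4, a feedback inhibitor, was at 7.70 CPM at E10.5 and 47.6 CPM at E12.5, and Fgfr3 was lower, at 156 CPM at E10.5 and 50.2 CPM at E12.5.

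Wnt ligands were higher in 5 of 19 cases and lower in 4, against 13.4% higher and 4.43% lower over all genes. Wnt5a, a noncanonical ligand of mesenchyme, was at 52.7 CPM at E10.5 and 337 CPM at E12.5, or 6.40-fold (6.02 to 6.80) higher, and Wnt11 was at 2.91 CPM at E10.5 and 61.7 CPM at E12.5. Lower were Wnt1, Wnt3a, Wnt7a and Wnt16, the first 2 being roof plate genes, Wnt3a at 14.4 CPM at E10.5 and 4.71 CPM at E12.5. The antagonist Dkk2 was at 5.85 CPM at E10.5 and 135 CPM at E12.5, or 22.997-fold (19.3 to 27.6) higher. Of 9 Wnt targets 1 was higher and 1 lower, where 13.4% of all genes were higher and 4.43% lower. Rnf43, a ligase that removes Wnt receptors, was higher, at 1.19 CPM at E10.5 and 4.96 CPM at E12.5, and the transcription factor Tcf7 was lower, at 48.1 CPM at E10.5 and 18.2 CPM at E12.5. Axin2 was at 151 CPM at E10.5 and 98.1 CPM at E12.5 and Lef1 at 39.4 CPM at E10.5 and 42.8 CPM at E12.5, neither called.

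Notch genes were lower in 7 of 17 cases and higher in 0. Dll1, a ligand, was at 90.9 CPM at E10.5 and 16.2 CPM at E12.5, the receptor Notch1 at 360.0 CPM at E10.5 and 106 CPM at E12.5, and the neural target Hes5 at 56.3 CPM at E10.5 and 2.46 CPM at E12.5, or 22.9-fold (17.6 to 30.2) lower. The vascular member Dll4 was not called, at 9.64 CPM at E10.5 and 10.54 CPM at E12.5. Retinoic acid genes were higher in 3 of 15 and lower in 4, against 13.4% higher and 4.43% lower over all genes. Rarg, a receptor, was at 19.1 CPM at E10.5 and 207 CPM at E12.5, or 10.8-fold (9.80 to 11.96) higher, and Rarb was lower, at 26.2 CPM at E10.5 and 9.79 CPM at E12.5. Cyp26b1, which degrades retinoic acid, was at 20.6 CPM at E10.5 and 115 CPM at E12.5. In the hedgehog list Ihh, of cartilage, was higher, from 3 counts to 5.04 CPM, Shh was lower, and Ptch1 was at 194 CPM at E10.5 and 134 CPM at E12.5.

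Adhesion genes were higher in 7 of 14 cadherin and 7 of 16 integrin cases, with 1 lower in each. Cdh11, of mesenchyme, was at 218 CPM at E10.5 and 613 CPM at E12.5, and Cdh3, of placodes and basal epidermis, at 23.6 CPM at E10.5 and 140.4 CPM at E12.5. The neural cadherin Cdh2 was at 311 CPM at E10.5 and 161 CPM at E12.5 and was not called. Itga11, a collagen receptor, was at 6.82 CPM at E10.5 and 35.1 CPM at E12.5, and Itgb8 was lower, at 149 CPM at E10.5 and 24.8 CPM at E12.5. Of the genes that lead to fat, Prdm16 was higher, at 20.5 CPM at E10.5 and 108 CPM at E12.5, while Pparg was at 0.2201 CPM at E10.5 and 0.833 CPM at E12.5 and below the level set.

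The same step in the second project was set beside these values. Of the 1958 first-project higher genes, 1408 were at the level set there, and 25 of them were higher, 40 lower and 1343 between. Of the 648 lower genes, 327 were at the level set, and 4 were lower, 12 higher and 311 between. The ratios lay on the same side of 1 in 37.7% of the higher and 48.9% of the lower genes. Over all genes at the level set in the second project the median change was -0.11 in log2(CPM + 1). Ratios below 1 were thus the commoner case there, and the share of all genes on each side of 1 is not given here. The 2 percentages are therefore not read as agreement or reversal. Among the listed and named genes, 27 passed the limits in both projects, 8 in the same direction and 19 in opposite ones. The 8 were Bcl11a, Cnmd, Egr1, Esrp1, Frem2, Gpc3, Ntrk2 and Prg4. Cnmd, chondromodulin, was at 5.33 CPM at E10.5 and 25.9 CPM at E12.5 in the first project and at 0.926 and 4.43 CPM in the second. Gpc3 was at 14.3 and 45.05 CPM in the second. The list of immediate early and heat shock genes had the largest share of calls there of the lists, with 9 of 16 higher, all 9 of them immediate early genes, and Fos at 14.3 and 201 CPM, against 2 of 16 in the first project, Egr1 and the heat shock gene Hspb1, where Fos was at 2.11 CPM at E10.5 and 3.999 CPM at E12.5. These second-project libraries differ from the first in depth and in the markers given above, and the part of either was not tested.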

How the data were processed

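The authors deposited raw read counts for 53465 genes in 14 libraries. Tools listed in the submitters' processing notes are featureCounts 1.6.0, STAR 2.5.0a, Trimmomatic 0.36 and DESeq2 1.20.0, with GRCm38 and mm10 as builds; settings are not given in the sources used here. Columns were matched to samples by name; 6 of 14 count columns were used and 8 were not.

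Counts were divided by the total over all genes to give CPM (Python 3.11.15, pandas 2.3.3). Ratios carry exact Clopper-Pearson 95% intervals (scipy 1.17.1) conditional on the total of both libraries. Genes with a mean of 1 CPM or more were called where the whole interval lay past 2-fold. With 1 library per age no test was made. A symbol on more than 1 ID (108 symbols) is represented by the ID with most counts. List medians use log2(CPM + 1) over all members in the table; 1105 of 1106 listed genes are in it, in 65 lists. The procedure was tested on simulated data that held counting error only, so the test does not cover differences between embryos or dissections. GENCODE M21 holds 53274 of the IDs.

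Named genes are the 12 highest and 12 lowest by the interval bound nearest 1 at 20 CPM or more, the 8 largest gains and losses in CPM, the 8 strongest peaks and troughs at E12.5 between E10.5 and E14.5, and list members; predicted genes were left out and not every such gene is named. Members and lists were chosen with earlier results of these data known. Scaling alternatives used edgeR 4.0.16 and DESeq2 1.42.0 in R 4.3.3 for factors only.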

Additional observations from a re-analysis of the deposited data

Results flagged for a closer look

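Among listed and named genes, 19 passed 2-fold in opposite directions in the 2 projects; with 1 library per age in each, the difference between projects was not tested. Genes higher at E12.5 in the first project had the following ratios of E12.5 to E10.5 in the second. Among macrophage genes the second-project ratio was 0.256 for C1qa, 0.271 for C1qb and 0.266 for C1qc. It was 0.379 for Adgre1, 0.391 for Ctss, 0.366 for Fcer1g and 0.442 for Mrc1. It was 0.293 for Stab1 and 0.324 for Tyrobp. Outside that list it was 0.329 for Acta2, 0.423 for Fbln5, 0.44 for Has2 and 0.46 for Itga4.

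Genes lower at E12.5 in the first project had second-project ratios above 1. The ratio was 3.36 for Lin28a, 3.51 for Lin28b and 3.25 for Mycn among timing genes. It was 4.68 for Dnmt3b, 2.75 for Sox2 and 7.26 for Elavl4.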

How the results depend on the processing

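Counting error is the only error these values carry, since each age is 1 library of a project. No paired analysis was possible because each group has 1 library and no test was made. The counts of 1958 higher and 648 lower genes were 1922 and 667 with TMM factors, 2028 and 599 with median-of-ratios factors, and 1953 and 650 without globin and mitochondrially encoded genes. They were 2268 and 750 with no level filter, 1336 and 491 at a mean of 5 CPM or more, and 2598 and 952 by the point ratio. With the whole interval past 4-fold they were 768 and 210. In the second project the 596 and 125 genes became 659 and 112 with TMM factors, and 483 and 99 at 5 CPM or more. The ratios of the 48 genes named by rank kept their direction under these scalings and moved by at most 2.73%; 14 of those values lay outside the counting interval of the ratio on CPM and 128 within it. Of the list counts, 383 stayed within 1.5 times and 3 did not: under median-of-ratios scaling the lower genes became 1 for replication and 0 for DNA methylation and for arterial, venous and lymphatic genes. With a pseudocount of 0.1 CPM 36 list medians moved by 0.1 or more. A gene at 0 counts could still have stood at up to 0.132 CPM at E10.5 or 0.125 CPM at E12.5, the level of 3 counts.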

Other observations

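Some genes stood lower at E12.5 than at both E10.5 and E14.5. Of genes at 20 CPM or more in the highest of the libraries of E10.5, E12.5 and E14.5, 11 were at least 4-fold lower at E12.5 than at both neighbours, and 59 were at least 4-fold higher. The metallothionein genes Mt1 and Mt2, which bind zinc and copper, were among the low ones. Mt1 was at 37.9 CPM at E10.5 and 6.46 CPM at E12.5 and 369 CPM at E14.5, and Mt2 was at 17.1 CPM at E10.5 and 1.96 CPM at E12.5 and 165 CPM at E14.5. Arg1, the arginase of the urea cycle, was at 69.8 CPM at E10.5 and 1.58 CPM at E12.5 and 12.4 CPM at E14.5. Gldc, of glycine cleavage, was at 88.3 CPM at E10.5 and 5.62 CPM at E12.5 and 37.8 CPM at E14.5. Aqp3, the water and glycerol channel of epidermis, was at 4.40 CPM at E10.5 and 0.708 CPM at E12.5, or 6.22-fold (3.69 to 11.1) lower, and 83.9 CPM at E14.5, while the basal keratins above were higher at E12.5. Arhgap36 was at 35.2 CPM at E10.5 and 3.71 CPM at E12.5 and 52.2 CPM at E14.5, and was as low at E9.5, at 3.76 CPM, as at E12.5. In the second project Mt1 was at 29.1 and 29.1 CPM and Arg1 at 8.12 and 9.01 CPM.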
